A study of Ambystoma mexicanum with 5 samples.

Results

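*Ebf2*, *Snai2*, *Tcf4*, *Zfhx4* and *Hic1* are 5 transcription factor genes of mesenchymal cells whose transcripts differed between the anterior and posterior dermis of the uninjured axolotl forelimb. They are 5 of the 99088 genes in the count table and 5 of the 20875 that passed a filter on low counts. They were taken by identifier from 2 supplementary lists of genes that the study called with DESeq2 on these same libraries. Those lists hold 306 identifiers, 283 of them with a symbol. The anterior-posterior contrast therefore chose the members, and every positional difference given for them is a description, without a p-value. *Ebf2* and *Hic1* come from the posterior list and the other 3 from the anterior list.

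Connective tissue cells were sorted by mCherry from the lower arm skin of uninjured axolotls, 12 cm long. All animals carried the driver Mmu.Prrx1:TFPnls-T2A-ERT2-Cre-ERT2, in which a mouse *Prrx1* enhancer drives an inducible Cre, and the reporter Caggs:loxP-GFP-loxP-mCherry (a tgSceI line of the Etnka designation). All had also received 4-hydroxytamoxifen (4-OHT) as embryos, which turned the reporter from GFP to mCherry for good in cells where the enhancer was active. The sort was meant to collect only cells that this enhancer had marked. For its flow cytometry, described there on *Hand2*:EGFP cells, the study states that purity was not checked by sorting again. No separate purity is given for this mCherry sort. The 2 anterior and 3 posterior libraries each pooled 8 axolotls, or 16 lower arms. The lower arm skin had been cut into an anterior and a posterior part, so that an arm could give to both positions. Nothing states whether anterior and posterior pools of one number shared animals, and the main test did not pair them.

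Mesenchymal cells lie in loose tissue and secrete matrix, and their state is held by repressors and activators that keep epithelial genes off or reserve a later fate. *Snai2* encodes SNAI2 (Slug), a zinc finger repressor known for epithelial-to-mesenchymal transition and for neural crest migration. *Tcf4* encodes TCF4 (E protein family), a basic helix-loop-helix factor that pairs with tissue-restricted partners. It is not *Tcf7l2*, the Wnt effector also called Tcf4 that marks limb connective tissue fibroblasts in mouse and chick. *Zfhx4* encodes ZFHX4, a very large protein with zinc fingers and homeodomains. *Hic1* encodes HIC1, a BTB zinc finger repressor that marks quiescent mesenchymal progenitors in the mouse. *Ebf2* encodes EBF2, a factor of the early B cell factor family that is known in the mouse for mesenchymal progenitors and brown fat precursors.

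The libraries held 44317956 to 59062548 counts. Levels are given in counts per 1000000 (CPM) after TMM scaling, with scaling factors between 0.9933 and 1.0116. The reads came from the 3′ ends of transcripts, so that a level does not grow with transcript length. Levels of different genes are set side by side on that ground, and other differences between genes in how their transcripts were counted were not tested. Log2-transformed CPM correlated across genes with r = 0.888 within the anterior pair, 0.851 to 0.864 among the posterior libraries and 0.851 to 0.872 across positions, and no library stood apart by this measure. Of 12 listed matrix genes of connective tissue, 8 could be matched, each through the study's lists of called genes. Together they took 12845 to 14446 CPM in anterior and 7805 to 8987 CPM in posterior libraries. *Postn* alone took 8095 and 9016 CPM in the anterior and 4540 to 5092 CPM in the posterior libraries. This sum cannot check the labelled cell type, since no other cell type was set beside it. Defining markers of the cell type, *Prrx1* among them, were not analysed here. In these bulk samples, fewer cells of a type and less RNA per cell cannot be told apart.

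The 3 anterior members were also the 3 most abundant. *Snai2* (AMEX60DD039671) was counted 10528 and 12995 times in anterior replicates 1 and 2, and 10590, 9601 and 7194 times in posterior replicates 1, 2 and 3. Scaled, these were 235 and 255 CPM against 181, 164 and 134 CPM. Both anterior libraries lay above all 3 posterior libraries, and posterior replicate 3 was the lowest. The anterior mean was 245 ± 13.9 CPM (SD, n = 2) and the posterior mean 159 ± 23.7 CPM (SD, n = 3). The log2 fold change, here and throughout posterior over anterior and from the edgeR fit, was -0.62 (SE 0.15). *Snai2* thus remained abundant in the position where it was lower, with 65.2% of the anterior mean.

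*Tcf4* (AMEX60DD041795) was counted 7575 and 8702 times in anterior replicates 1 and 2, and 4623, 7134 and 5630 times in the posterior replicates. Its scaled level was 169 and 171 CPM in the anterior libraries and 78.8, 122 and 105 CPM in the posterior libraries. The anterior libraries were nearly equal, whereas the posterior libraries spread widely around their mean, with replicate 1 lowest and replicate 2 highest. The mean was 170 ± 1.02 CPM (SD, n = 2) anterior, the mean posterior level was 102 ± 21.7 CPM (SD, n = 3), and the log2 fold change was -0.74 (SE 0.18). With posterior replicate 1 left out it was -0.58, and with posterior replicate 2 left out -0.89.

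*Zfhx4* (AMEX60DD039942) was even within each position, and the most even of the 5 in posterior cells. Its anterior counts were 6605 and 7723 and its posterior counts 5717, 5809 and 5260, or 147 and 151 CPM against 97.5, 99.3 and 97.9 CPM. The groups did not overlap, and the lowest anterior library was 1.49 times the highest posterior library. Anterior libraries averaged 149 ± 2.76 CPM (SD, n = 2), posterior libraries averaged 98.2 ± 0.925 CPM (SD, n = 3), and the log2 fold change was -0.61 (SE 0.13). The coefficient of variation over the posterior libraries was 0.942%, under the 1.34% that counting alone would give at that depth. Of all genes tested, scarce ones included, 0.177% had a smaller one. The median was 12.0% over the 4304 genes with a mean level at or above that of *Ebf2*. The standard error comes from a spread shared across genes and is wider than these libraries alone would give.

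*Hic1* and *Ebf2* were higher in posterior cells. *Hic1* (AMEX60DD054904) gave 1858 and 2933 anterior counts, and 5379, 4768 and 4638 posterior counts. Its scaled level was 41.5 and 57.5 CPM against 91.7, 81.5 and 86.3 CPM, so that the spread lay between the anterior libraries and the posterior libraries were close to each other. Anterior libraries averaged 49.5 ± 11.3 CPM (SD, n = 2), posterior libraries averaged 86.5 ± 5.14 CPM (SD, n = 3), and the log2 fold change was 0.81 (SE 0.18). It was 0.59 with anterior replicate 1 left out and 1.06 with anterior replicate 2 left out.

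*Ebf2* (AMEX60DD002999) was the least abundant of the 5 and had the widest difference. Its anterior counts were 361 and 292, and its posterior counts 1700, 1846 and 1921. Scaled, these were 8.06 and 5.72 CPM against 29.0, 31.5 and 35.7 CPM, and the lowest posterior library was 3.60 times the highest anterior library. Anterior libraries averaged 6.89 ± 1.65 CPM (SD, n = 2), posterior libraries averaged 32.1 ± 3.41 CPM (SD, n = 3), and the log2 fold change was 2.22 (SE 0.25), with a ratio of means of 4.66. *Ebf2* was still detected in both anterior libraries, far above the 0.0508 to 0.0677 CPM that 3 counts would represent, and its anterior mean was 21.5% of the posterior mean.

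**Figure D1:**
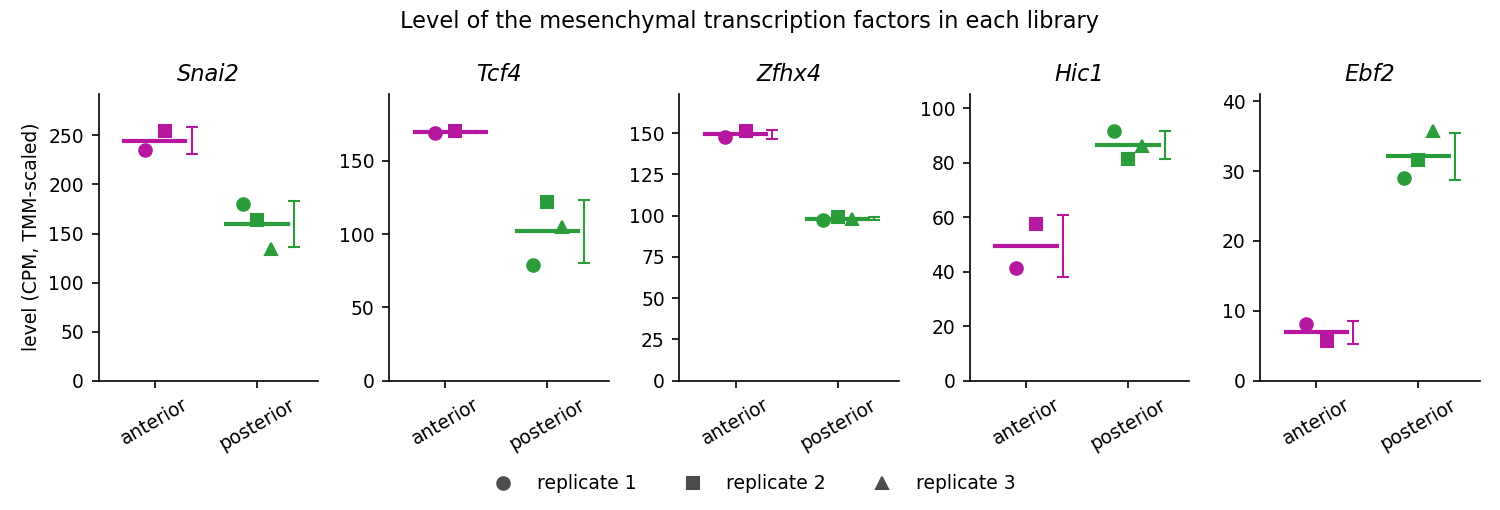
Level of each of the 5 genes (CPM after TMM scaling, axes from 0) in the 2 anterior (magenta) and 3 posterior (green) libraries, with marker shape for the replicate number, a horizontal line for the mean and a bar for ± 1 SD. *Snai2*, *Tcf4* and *Zfhx4* were lower in posterior libraries, *Hic1* and *Ebf2* were higher, and no group overlapped the other.

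In each of the 5 genes the libraries of the 2 positions did not overlap. Over all genes tested, 24.1% showed no overlap, 10.5% with posterior and 13.6% with anterior libraries higher. At a false-discovery rate of 0.01, edgeR's quasi-likelihood test called 1 of the 5, *Ebf2*, against 0.254% of all genes tested (53 of 20875). By direction, 1 of the 2 posterior members passed, against 0.12% of genes, and 0 of the 3 anterior members, against 0.134%. At 0.05, *Ebf2* was again the one member to pass, against 0.608% of genes. Without any one of the 3 posterior libraries, *Ebf2* did not pass either, and the count of the members was 0. Over all genes tested, only 5, 2 and 3 genes passed without posterior replicate 1, 2 and 3. The log2 fold change of *Ebf2* was then 2.29, 2.23 and 2.15. With DESeq2, 298 genes passed, or 1.37% of the 21794 with an adjusted p-value, and all 5 members were among them. The members were selected by such a test on these libraries, so that neither count is evidence about them. Of the 5 members, *Tcf4* lay nearest to the limit of the DESeq2 fit made here, where 10 called genes followed it by p-value. This limit is not that of the study's lists, which hold 306 identifiers. The first gene past it was *Pcp4* (AMEX60DD047161), which has its symbol from those lists and was thus called by the study. DESeq2 gave a log2 fold change of 3.21 for *Pcp4* and of -0.72 for *Tcf4*. *Pcp4* was counted 8 and 51 times in anterior libraries, and 318, 489 and 128 times in posterior libraries.

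The order of the 5 levels was the same in both positions by mean CPM, but its steps were not. In anterior cells *Snai2* led, followed by *Tcf4*, *Zfhx4*, *Hic1* and *Ebf2*. In posterior cells *Tcf4*, *Zfhx4* and *Hic1*, at means of 102, 98.2 and 86.5 CPM, came close together, and the difference between *Tcf4* and either of the others was smaller than the SD of *Tcf4*. *Zfhx4* lay above *Hic1* in all 3 posterior libraries. Ranked by mean CPM among all genes tested, *Snai2* was at place 632, *Tcf4* at 901, *Zfhx4* at 971, *Hic1* at 1568 and *Ebf2* at 4304. The summed level of the 5 was 601 and 640 CPM in the anterior libraries and 478, 498 and 459 CPM in the posterior libraries.

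Ratios of counts within a library need no scaling. Members of opposite direction were taken from opposite lists of the study, so that a difference in their ratio between positions follows from that choice and is only described. *Snai2* had 5.67 and 4.43 counts for each count of *Hic1* in anterior replicates 1 and 2, against 1.97, 2.01 and 1.55 in the posterior replicates. *Tcf4* had 4.08 and 2.97 counts for each count of *Hic1* in anterior and 0.859, 1.50 and 1.21 in posterior libraries. *Hic1* made up 6.90% and 8.98% of the summed level of the 5 in the anterior libraries and 16.4% to 19.2% in the posterior libraries. Members of one direction differed in this. *Snai2* had 1.59 and 1.68 counts for each count of *Zfhx4* in anterior and 1.85, 1.65 and 1.37 in posterior libraries, so that the groups overlapped, as they did for both other pairs of anterior members. *Hic1* had 5.15 or more counts for each count of *Ebf2* in both anterior libraries and 3.16, 2.58 and 2.41 in posterior libraries, without overlap.

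The deviations of each library from the mean of its own position were small in *Zfhx4* and wide in *Tcf4*. On the log2 scale the posterior libraries spanned 0.03 for *Zfhx4*, 0.17 for *Hic1*, 0.30 for *Ebf2*, 0.43 for *Snai2* and 0.63 for *Tcf4*. The median span was 0.33 over the 4304 genes with a mean level at or above that of *Ebf2*. Between the anterior libraries the span was 0.01 for *Tcf4*, 0.04 for *Zfhx4*, 0.12 for *Snai2*, 0.47 for *Hic1* and 0.49 for *Ebf2*, against a median of 0.19 over those genes. The posterior libraries did not fall in one order over the members. Posterior replicate 1 was the highest posterior library for *Snai2* and *Hic1* and the lowest for *Tcf4* and *Ebf2*. It was also the lowest for *Zfhx4*, whose posterior spread lay under that of counting alone. Anterior replicate 2 was the higher anterior library for every member except *Ebf2*, though for *Tcf4* by only 0.01, too little to rank the 2 libraries. Whether the members vary together was not tested, with so few libraries. The biological coefficient of variation that edgeR estimated was 14.1% to 20.5%, beside a trend of 16.4% to 22.3% for genes of their level. The estimate of each gene is drawn toward that trend by edgeR. Closeness to it is therefore partly built in, and nothing is read from it about the members.

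**Figure D2:**
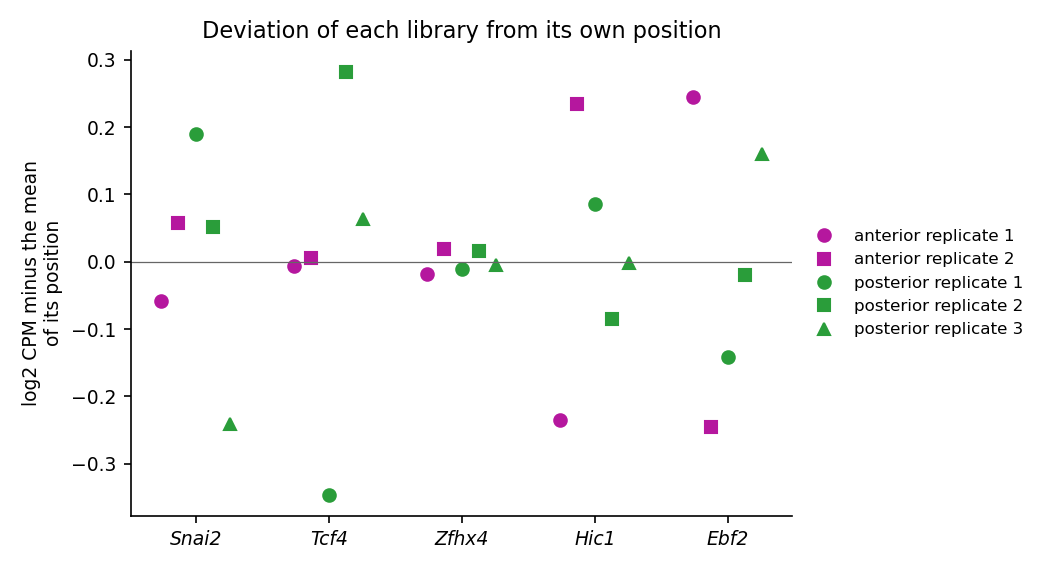
Log2 CPM of each library minus the mean of its own position, for each of the 5 genes, with colour for position and marker shape for replicate number. The points of *Zfhx4* stay close to 0, those of *Tcf4* spread between the posterior libraries, and those of *Hic1* and *Ebf2* between the anterior libraries.

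Likeness of pattern was measured as the root mean square difference between log2 CPM profiles over the 5 libraries, each gene centred on its own mean. Each profile holds the difference between positions by which the members were chosen. Closeness within a direction and distance between directions therefore follow in part from that choice and are only described. Within the anterior members the difference was 0.14 between *Snai2* and *Zfhx4*, 0.21 between *Tcf4* and *Zfhx4* and 0.30 between *Snai2* and *Tcf4*. *Snai2* had 90 tested genes closer to it than *Zfhx4* was and 1981 closer than *Tcf4*, and *Tcf4* had 252 closer to it than *Zfhx4*. *Hic1* and *Ebf2*, both posterior, differed by 0.76, as much as *Hic1* differed from *Zfhx4* (0.72) or *Snai2* (0.73), since the difference of *Ebf2* was so much wider. Pairs of opposite direction that included *Ebf2* differed by 1.40 to 1.48. *Ebf2* had 577 tested genes closer to it than *Hic1* was, against 12992 to 13944 closer than the anterior members.

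Among genes with a symbol, all of which the study had called on these libraries, the nearest to *Snai2* were *Tmeff1* (0.09), *Sema3f* (0.12), which encodes a secreted guidance cue, and *Gfra2* (0.13), a co-receptor of the GDNF family. The nearest to *Tcf4* were *Sgk1* (0.06), a serine/threonine kinase, *Itgbl1* (0.10) and *Fbln2* (0.10), a matrix glycoprotein. *Zfhx4* was nearest to *Hhip* (0.07), which encodes a cell-surface antagonist of hedgehog ligands, *Gnai2* (0.08) and *Sema3f* (0.08). *Hic1* was nearest to *Vat1* (0.07), *Cfl2* (0.10), an actin-severing cofilin, and *Arhgdib* (0.12). The nearest to *Ebf2* were *Cpm* (AMEX60DD008176, 0.13), the gene of carboxypeptidase M, then LOC106737871 (0.17) and the second gene named *Krt19* (AMEX60DD038192, 0.18). These last 3 were scarce, at means of 0.858 to 1.51 CPM in anterior and 4.14 to 7.56 CPM in posterior cells. Over all genes tested, with or without a symbol, 15 lay closer to *Snai2* than *Tmeff1* did and 11 closer to *Zfhx4* than *Hhip*. The number was 5 for *Hic1* and *Vat1*, 1 for *Tcf4* and *Sgk1* and 0 for *Ebf2* and *Cpm*.

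The 5 genes were set beside 15 other limb patterning factors with an identifier in the same 2 lists. The division is not strict, since the study itself counts *Zfhx4* as an anterior factor, together with *Lhx2*, *Lhx9*, *Barx1* and *Hoxc10* from the 15. Patterning factors such as *Hand2*, *Lhx9* and the Hox genes assign position along a limb axis. The 5 had been grouped for a modest bias and, in several, a high level. Their contrast with patterning factors in fold change and level therefore follows in part from that choice. All 15 were, like the 5, chosen by the anterior-posterior contrast, so that the comparison is a description without a test. The same holds for every gene list that follows, since a listed gene had an identifier only where the study had called it on these libraries. Counts of its members past a test are therefore no evidence about a list. The mean level in the lower position was 57.2% to 65.7% of the higher position for *Snai2*, *Tcf4*, *Zfhx4* and *Hic1*. For the 15 patterning factors it was at most 45.3%, for *Msx2*, with a median of 22.1%. *Ebf2*, at 21.5%, lay within the range of the patterning factors, 8 of which had a smaller absolute log2 fold change. The median absolute log2 fold change was 0.74 over the 5 and 2.18 over the 15, and it stayed 2.18 with *Lhx9* and *Foxd1*, at 0 counts in all posterior libraries, and *Hoxc10*, with 1 posterior count in all, set to the floor of 3 counts per library.

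Levels differed as well. The mean over the 5 libraries was 71.7 to 194 CPM for the 4 members other than *Ebf2*, whereas 1 of the 15 patterning factors, *Hand2*, exceeded *Hic1* and 4 exceeded *Ebf2*, at 22.0 CPM. The median over the 15 was 8.95 CPM. This mean covers 2 anterior and 3 posterior libraries, and 10 of the 15 were higher in anterior cells. It therefore holds part of the positional difference. In anterior cells alone, only *Alx1* of the 15 exceeded *Hic1*, at 85.1 against 49.5 CPM. In posterior cells alone, only *Hand2* did, at 147 against 86.5 CPM, and there it also exceeded *Tcf4* and *Zfhx4*. Among the 4304 tested genes at or above the level of *Ebf2*, whose median absolute log2 fold change was 0.17, a larger value than that of *Zfhx4* was found in 7.43%, than that of *Snai2* in 7.25%, than that of *Tcf4* in 4.95%, than that of *Hic1* in 3.97% and than that of *Ebf2* in 0.209%.

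**Figure D3:**
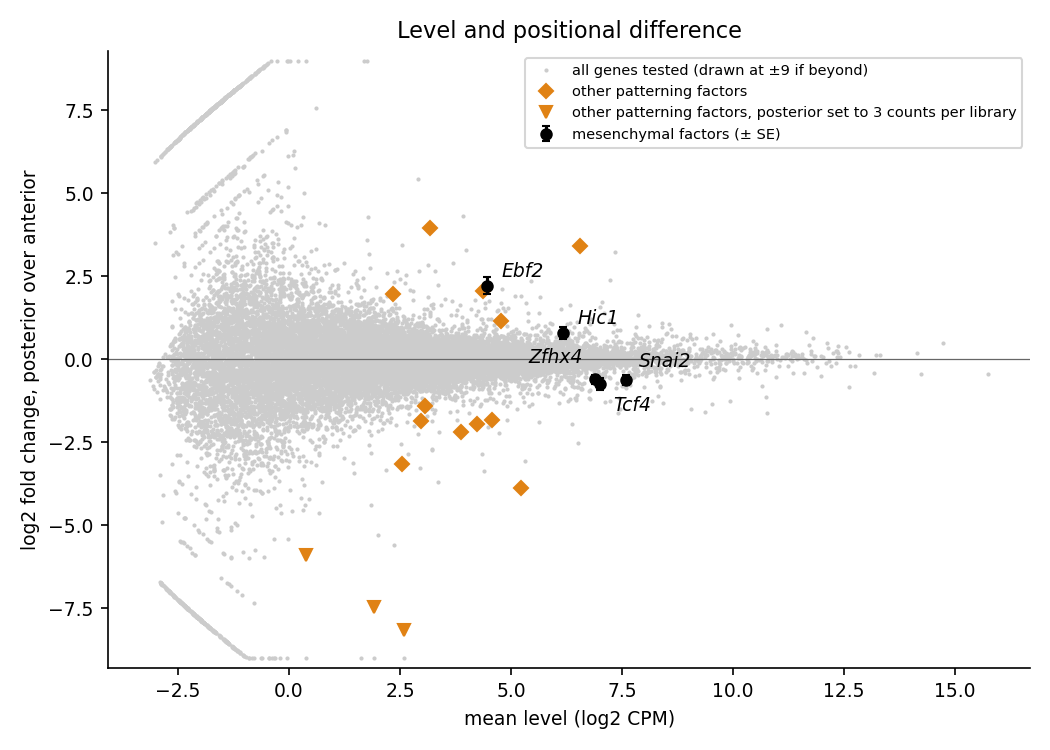
Log2 fold change (posterior over anterior) against mean level (log2 CPM) for all 20875 genes tested (grey), the 15 other patterning factors (orange, triangles where the posterior level was set to the floor of 3 counts) and the 5 mesenchymal factors (black, ± SE). *Snai2*, *Tcf4*, *Zfhx4* and *Hic1* lie at higher levels and nearer to 0 than the patterning factors, apart from *Hand2* in level, and *Ebf2* lies among them.

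Of 7 further transcription factors listed, 6 carried an identifier, of which posterior cells had more of 2 and anterior cells more of 4, and the edgeR test called 0. *Jun*, an immediate-early factor, and *Klf8*, a Krüppel-like factor, lay near the modest members: their lower positions kept 57.8% and 56.9% of the higher. *Bnc2*, a zinc finger factor of mesenchyme, kept 48.0%. *Nr2f1*, an orphan nuclear receptor, kept 32.3%, at 27.9 CPM in anterior and 9.03 CPM in posterior cells. *Egr4*, an early growth response factor, kept 27.8%. *Znf10*, a zinc finger gene, was widest apart, with 0 and 2 anterior counts and 91, 127 and 80 posterior counts.

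*Tcf4* and *Hand2* belong to partner classes of basic helix-loop-helix factors, and E proteins pair with Hand proteins in other vertebrates. Of 10 listed partners and inhibitors of *Tcf4*, only *Hand2* carried an identifier. *Tcf4* had 12.6 and 12.3 counts for each count of *Hand2* in anterior replicates 1 and 2, against 0.514, 0.848 and 0.731 in the posterior replicates. *Tcf4* counts thus exceeded those of *Hand2* in both anterior libraries and were fewer than those of *Hand2* in all 3 posterior libraries.

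Since *Snai2* represses epithelial genes in other vertebrates, 10 epithelial genes were listed, of which 7 carried an identifier, 1 of them on 2 genes. Posterior cells had the higher mean for 6 of these 8 genes, and 3 of the 6 passed the edgeR test, *Krt5*, the *Krt19* gene AMEX60DD038184 and *Col17a1*. Over all genes tested 0.12% passed in that direction, and nothing is read from this difference because the 8 genes were matched through the study's own calls. *Dsp*, which encodes desmoplakin, was at 121 CPM in anterior and 196 CPM in posterior cells. *Ocln*, the tight junction gene occludin and a repression target of Snail family proteins in mammals, went the other way with *Snai2*, at 107 CPM in anterior and 42.4 CPM in posterior cells. The summed level of the 8 genes was 412 and 417 CPM in the anterior libraries and 675 to 910 CPM in the posterior libraries. *Krt17* was at 0 counts in both anterior libraries and at 206, 68 and 46 counts in the posterior libraries. *Krt18* was at 96 and 129 counts in the anterior libraries and at 0 counts in all 3 posterior libraries. Both were thus scarce, and neither passed the edgeR test. The listed genes also mark epidermal cells, which the sort for mCherry was meant to remove, and their part in the result for *Snai2* was not tested.

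*Snai2* is also expressed in pigment cells and their neural crest precursors. Of 6 glial and pigment cell genes, *Ngfr* and *Ednrb* carried an identifier, and both were higher in anterior cells, together at 54.9 to 58.6 CPM in anterior and 17.5 to 24.4 CPM in posterior libraries. *Ednrb* was counted 623 and 635 times in anterior cells, and 44, 192 and 75 times in posterior cells. The sort was meant to remove these cells too where the enhancer had not marked them. Their part in the anterior level of *Snai2*, at 235 and 255 CPM, was not tested.

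*Hic1* was set beside genes of progenitor-like fibroblasts in the mouse, cells in which *Hic1* is also found. Of 10 listed, 7 carried an identifier and all 7 were higher in posterior cells. Their log2 fold changes ran from 0.66 to 1.07, with a median of 1.01. The median over all genes tested, called or not, was -0.02. None of the 7 passed the edgeR test at 0.01. *Mfap5*, a microfibril-associated glycoprotein, was at 617 CPM in anterior and 1258 CPM in posterior cells. *Scara5*, a ferritin receptor, was at 69.2 and 126 CPM, *Cd34*, a sialomucin of stromal and vascular cells, at 18.5 and 37.5 CPM, and *Tnxb*, a tenascin, at 171 and 344 CPM. All 7 stand on the posterior list of the study. A listed gene could have an identifier only through the posterior or the anterior list, so that each of the 7 had to differ, in either direction. Their shared direction is therefore known only for called genes. The list was also chosen with earlier results of these data known, so that the direction may follow from that choice. *Cd34* is an endothelial marker too, and together with *Sema3g*, the other of 6 endothelial genes with an identifier, it was at 47.0 to 56.9 CPM in anterior and 101 to 151 CPM in posterior libraries. Of 6 immune genes 3 carried an identifier and had the same direction: *Ctss*, *Timd4* and *Arhgdib*, the last of which was among the genes nearest to *Hic1* in profile, together were at 82.4 to 116 CPM in anterior and 178 to 203 CPM in posterior libraries. The sort for mCherry was meant to remove endothelial and immune cells, and their part in the level of *Hic1* was not tested.

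*Ebf2* promotes the brown adipocyte fate in the mouse, and of 8 adipocyte genes 3 carried an identifier. All 3 were higher in anterior cells, opposite to *Ebf2*, and 0 passed the edgeR test. *Lpl*, lipoprotein lipase, was at 108 and 67.4 CPM, *Angptl4*, its inhibitor, at 34.6 and 15.3 CPM, and *Gpd1*, a glycerol phosphate dehydrogenase, at 31.7 and 16.5 CPM in anterior and posterior cells. Markers of cells around vessels, where *Ebf2* is also found in the mouse, likewise ran opposite to it. *Rgs5* and *Synm*, 2 of 6 listed pericyte and smooth muscle genes, were together at 97.4 to 97.5 CPM in anterior and 46.8 to 52.6 CPM in posterior libraries. *Acan* and *Col11a1*, 2 of 5 listed cartilage genes, were together at 26.9 to 36.3 CPM in anterior and 58.7 to 78.1 CPM in posterior libraries, the direction of *Ebf2*. The part of such cells in the level of *Ebf2* was not tested.

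Of the 8 matrix genes, 6 were higher in anterior and 2 in posterior cells, with *Postn* and *Col12a1* passing in the anterior and *Fn1* in the posterior direction. The study had called all 8, so that each had to fall on one side.

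**Figure D4:**
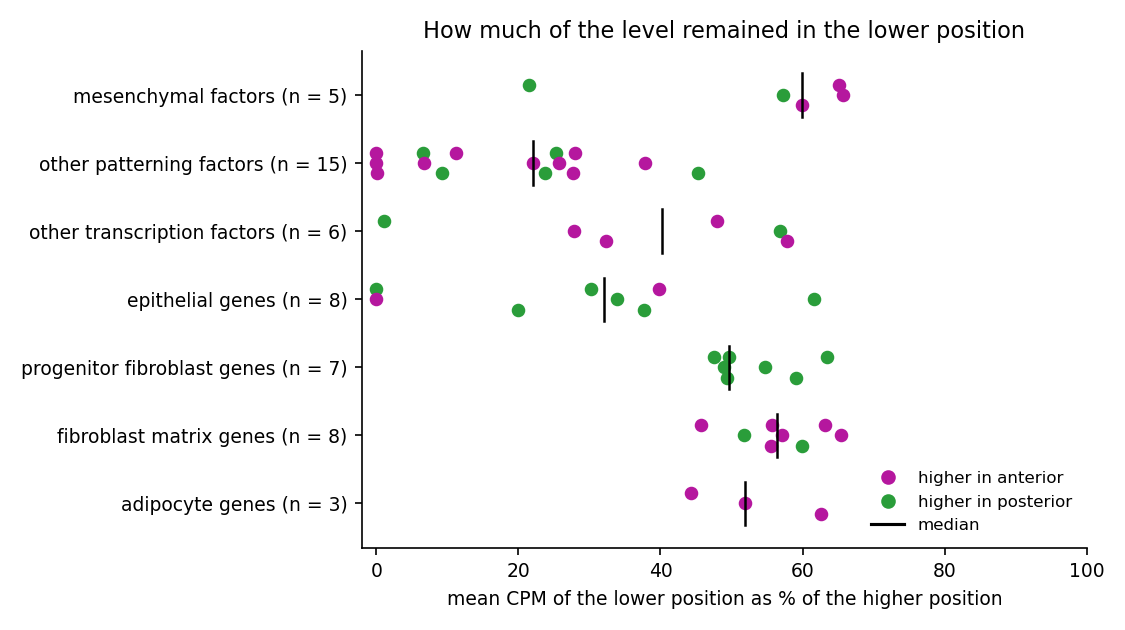
Mean CPM of the lower position as a percentage of the higher position for the 5 mesenchymal factors and 6 gene lists, each point 1 gene (magenta if higher in anterior, green if higher in posterior cells) and the vertical line the median. The mesenchymal factors have a median of 60.0%, with *Ebf2* apart at 21.5%, and the 15 patterning factors a median of 22.1%.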

How the data were processed

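Raw counts per gene and library, as deposited by the authors, were the only values used. The authors made QuantSeq 3′ libraries from 20.25 ng of RNA, trimmed reads with Trimmomatic 0.39, mapped them to AmexG_v6.0-DD with HISAT2 (at most 5 alignments per read) and counted them with featureCounts. How reads with several alignments, on overlapping genes or on either strand were counted is not given in the sources used here, so that counts of close paralogues and of antisense pairs are uncertain. No molecular identifiers are described, so that the limit of 3 counts covers counting error only.

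Counts were filtered by filterByExpr, scaled by TMM and fitted with edgeR 4.0.16 in R 4.3.3 (glmQLFit and glmQLFTest, position as the only term, all 5 libraries), with Benjamini-Hochberg adjustment over 20875 genes at a false-discovery rate of 0.01. The SE of a log2 fold change was derived from the F statistic. Log2 CPM used a prior count of 2. Each replicate pooled 8 axolotls, and the calls rest only on the spread between these pools. The code was tested on simulated counts.

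The members and the gene lists were chosen with earlier results of these data known. Named were the 5 members, the 3 genes with a symbol nearest to each in profile, the listed genes with an identifier, and the genes at the DESeq2 limit. Symbols come from the study's 2 lists of called genes, and listed genes without one were not analysed here. Apart from the patterning and other transcription factors, each list had fewer than 80% of its genes matched. Alternatives were DESeq2 1.42.0, limma-voom (limma 3.58.1), other scalings, filters and thresholds, robust fitting, a block for the replicate number, and each library left out.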

Additional observations from a re-analysis of the deposited data

How the results depend on the processing

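The log2 fold changes of all 5 genes kept their direction under all 12 alternatives fitted for each. With each library left out in turn they ranged from 1.99 to 2.49 for *Ebf2*, from -0.71 to -0.50 for *Snai2*, from -0.89 to -0.58 for *Tcf4*, from -0.63 to -0.59 for *Zfhx4* and from 0.59 to 1.06 for *Hic1*. Over the other alternatives they ranged from 2.15 to 2.25, -0.63 to -0.51, -0.79 to -0.72, -0.61 to -0.59 and 0.80 to 0.82 in the same order. The number of the 5 genes past the threshold was 4 without the filter on low counts (all but *Zfhx4*), 5 with DESeq2 and 0 to 1 with a library left out, 0 without any one posterior library and 1 without either anterior one. It was 1 under the other alternatives. Over all genes, 53 passed in the main test, 337 without the filter, 103 in the robust fit, 298 with DESeq2, 127 at a false-discovery rate of 0.05, and 2 to 62 with a library left out. The cause of these differences was not tested, apart from the fewer libraries and the looser threshold themselves.

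Nothing states whether same-numbered libraries shared animals. With the replicate number as a block, 130 genes and 1 of the 5 passed, and the log2 fold changes were 2.15 for *Ebf2*, -0.51 for *Snai2*, -0.79 for *Tcf4*, -0.60 for *Zfhx4* and 0.82 for *Hic1*. Across genes, which are no independent replicates, the change from replicate 1 to 2 correlated with r = -0.025 between the positions. With an anterior library left out, the lone anterior library was assumed to vary like the posterior ones. The 3 genes named as nearest in profile to each member were the same when libraries were scaled by their totals. The spread between the 2 anterior libraries of *Hic1* and of *Ebf2*, and between the 3 posterior libraries of *Tcf4*, limits the precision of their fold changes.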

Other observations

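Gene identifiers of the assembly are numbered in series, and the 5 identifiers on either side of each member were examined. Of 50 such neighbours, 22 had a count and 14 were tested, 0 of which passed the edgeR test at a false-discovery rate of 0.01. Beside *Ebf2*, the better counted neighbours AMEX60DD002994 and AMEX60DD002995 had log2 fold changes of -0.07 and 0.21 (standard errors 0.20 and 0.44), against 2.22 for *Ebf2*. Beside *Hic1*, AMEX60DD054903 and AMEX60DD054908 had 0.22 and 0.22 (standard errors 0.32 and 0.39), and beside *Tcf4*, AMEX60DD041799 had 0.22 (standard error 0.19), opposite in sign to *Tcf4*.

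Over all genes tested, 24.1% showed no overlap between the positions, and some neighbours showed none either, in the direction of their member or against it. The most abundant of those in the direction of their member lay beside *Snai2*. There, the next identifier, AMEX60DD039672, for which the sources used here give no name, was counted 1318 and 1314 times in anterior replicates, and 771, 1031 and 884 times in posterior replicates, or 29.4 and 25.7 CPM against 13.1, 17.6 and 16.4 CPM. Its log2 fold change was -0.81 (SE 0.22), in the direction of *Snai2*, and the libraries of the 2 positions did not overlap. Its posterior libraries did not follow those of *Snai2*: posterior replicate 1 was the highest of the 3 for *Snai2* and the lowest for the neighbour. Whether it is a separate gene, a part of the *Snai2* transcript or an antisense RNA was not tested. Beside *Zfhx4*, AMEX60DD039945 was at 4.02 and 3.45 CPM against 1.42, 1.86 and 3.29 CPM, with a log2 fold change of -0.77 (SE 0.62). Beside *Tcf4*, AMEX60DD041800 was at 2.32 and 2.02 CPM against 1.43, 0.871 and 1.51 CPM, with a log2 fold change of -0.77 (SE 0.86). Against the direction of their members, AMEX60DD003002 beside *Ebf2* and AMEX60DD054909 beside *Hic1* were higher in anterior libraries without overlap. Their log2 fold changes were -4.99 (SE 2.42) and -2.66 (SE 1.26), at mean anterior levels of 0.980 and 1.95 CPM.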
